A study of Mus musculus with 20 samples.

Results

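Lipid droplet coat genes encode proteins that sit on, or shape, the surface of the droplets in which liver cells store triglycerides and cholesteryl esters. *Plin2*, *Plin3*, *Plin4*, *Plin5*, *Cidea*, *Cideb*, *Cidec*, *Fitm1*, *Fitm2* and *Hsd17b13* were taken by name. No cut on their measured values was used, but earlier results of these data were known when they were chosen. They make up 10 of 18194 genes and 12 of 45101 probe sets on the Affymetrix mouse array, where a probe set is the group of short probes that reads 1 transcript. Livers of 10 *IMP2-2* transgenic (tg) mice, labelled p62/IMP2-2 or p62 transgenic, were compared with livers of 10 wildtype (wt) mice. All mice were 5 weeks old and on the mixed background C57Bl6J/DBA2, and no treatment is named for either genotype. By the title of the series the transgene is liver-specific. Neither the promoter that drives it nor the sex of the mice is stated in the sources used here.

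A lipid droplet has a core of neutral lipid under a single layer of phospholipids, and its coat decides which enzymes reach that core. Perilipins cover the surface and hold back lipolysis, CIDE proteins join droplets so that lipid flows into the larger one, and FITM proteins act in the endoplasmic reticulum where droplets bud. In hepatocytes, coat proteins rise with the amount of stored lipid, partly because lipid protects some of them from degradation, so their mRNA and protein can part. The *IMP2-2* tg line is studied as a model of fatty liver, and the comparison asks whether mRNAs of the coat differed between its livers and wt livers.

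Each array gave RMA signals on the log2 scale, with array medians of 4.46 to 4.55. Several arrays stood apart. On the first principal component of all probe sets, 3 tg arrays (tg_1420_4, tg_1423_2-8_1, tg_1423_2-8_4) reached 53.0 to 70.4, against -20.2 to 8.3 for the other 7 tg arrays and -26.8 to 7.7 for wt arrays. 2 pairs of wt arrays were nearly identical (wt_1407_2 with wt_1420_6, wt_1407_5 with wt_1420_7), and each pair was averaged into 1 profile for the wt means and SDs (n = 8 profiles). The limma fit used the 20 arrays one by one, so its fold changes are not the differences of the printed means. tg_1386_9 and wt_1386_4 were the closest arrays of all, with an SD of their log2 difference of 0.155, and both were kept under their labels. Whether all arrays come from separate mice is not stated, and p-values measure only the spread between these samples. *Igf2bp2* was not analysed here, so the labels were not checked against the transgene itself.

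No droplet coat gene was called in either direction. With limma and Benjamini-Hochberg adjustment over all probe sets at 0.05, 0 of the 12 probe sets were higher and 0 were lower in tg livers, whereas 1.88% of all probe sets were higher, 0.663% were lower and 2.55% were called in either direction. At an unadjusted p under 0.05, 2 of the 12 passed, those of *Cideb* and *Fitm1*, both lower in tg livers, against 20.4% of all probe sets. The log2 fold change of tg over wt was below 0 for 8 of the 10 genes and above 0 for 2, with a median of -0.08, and the median over all probe sets was -0.03. A p that misses the threshold does not show that the livers had equal amounts, and the intervals below give the differences that these arrays allow. With each near-identical wt pair averaged before the fit, *Plin2* was at -0.04, *Plin3* at -0.10, *Plin4* at -0.12, *Cidea* at -0.05 and *Fitm2* at -0.08 (limma adjusted p of 0.509 to 0.911), and none was called. In whole liver, fewer cells that make a transcript and less RNA per cell cannot be told apart.

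**Figure D1:**
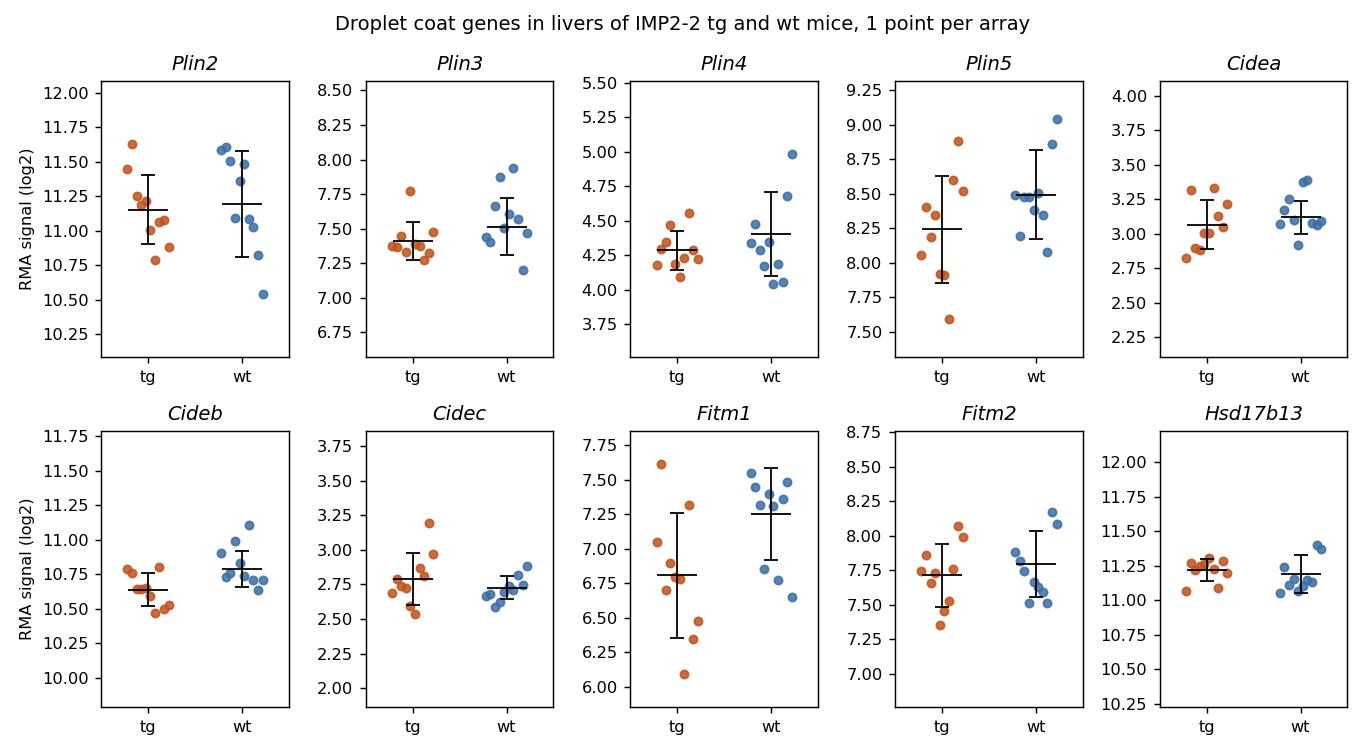
RMA signal (log2) of the 10 droplet coat genes on each array, with tg livers to the left of wt livers. The horizontal line is the mean and the bars are the SD (10 tg arrays, 8 wt profiles), and the vertical axes differ between genes. For every gene the points of the genotypes overlap, and *Fitm1* has 3 tg arrays below all wt arrays.

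*Plin2* encodes the main perilipin of hepatocyte droplets and is the usual marker of a fatty liver. Its signal was 10.79 at the lowest, 11.14 at the median and 11.63 at the highest in tg livers, against 10.54, 11.23 and 11.61 in wt livers. The ranges covered each other almost completely. The means ± SD were 11.15 ± 0.25 in tg livers (n = 10 arrays), against 11.19 ± 0.39 in wt livers (n = 8 profiles). The log2 fold change was -0.06 with a 95% interval of -0.32 to 0.21 (SE 0.13, limma adjusted p = 0.838), which is 0.961-fold with an interval of 0.799 to 1.16. A change larger than those bounds in either direction lies outside the interval. Without tg_1420_4, tg_1423_2-8_1 and tg_1423_2-8_4 the sign turned, to 0.05 (limma adjusted p = 0.938, with 0.542 to 0.970 over all alternatives).

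*Plin3*, a perilipin that waits in the cytosol and binds newly formed droplets, had 7.28 at the lowest, 7.38 at the median and 7.77 at the highest in tg livers, against 7.20, 7.54 and 7.94 in wt livers. Of the 10 tg arrays, 9 lay under the wt median, but none lay under the lowest wt array. The means ± SD were 7.41 ± 0.14 in tg livers (n = 10), against 7.51 ± 0.20 in wt livers (n = 8). In limma over the 20 arrays the log2 fold change was -0.15, with an interval of -0.32 to 0.01 (adjusted p = 0.284).

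*Plin5* is the perilipin of tissues that burn fatty acids, where it ties droplets to mitochondria and binds the lipase of *Pnpla2* and its activator of *Abhd5*. The brighter of its 2 probe sets had 7.59 at the lowest, 8.27 at the median and 8.88 at the highest in tg livers, against 8.08, 8.48 and 9.04 in wt livers. In 4 tg arrays the signal was below that of every wt array, while the other 6 lay inside the wt range. With the dimmer probe set this held for 2 tg arrays. The suffix of the brighter one marks probes that may also bind related transcripts. On the log2 scale the fold change was -0.24 with an interval of -0.54 to 0.05 (SE 0.14, limma adjusted p = 0.335), and -0.25 for the dimmer probe set (limma adjusted p = 0.310). Both probe sets read the same variation between livers, with r = 0.978 over 18 profiles, so they count as 1 measurement of the gene.

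*Plin4*, a perilipin known from adipose tissue and muscle and the neighbour of *Plin5* on chromosome 17, was dim. Tg livers averaged 4.29 ± 0.14 (SD, n = 10) and wt livers 4.41 ± 0.30 (SD, n = 8), under the median of all probe set means, 4.53. Differences of a dim probe set are compressed, so an equal signal here says little about the transcript. Between genotypes it differed by -0.07 on the log2 scale (limma adjusted p = 0.713) and turned to 0.05 (limma adjusted p = 0.808, with 0.555 to 0.989 over all alternatives) without the 4 arrays named tg_1423_2-8 or wt_1423_2-8.

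Among the CIDE genes, *Cideb* is the one that normal hepatocytes express, and its protein helps to load lipid onto very low density lipoproteins. *Cideb* had 10.47 at the lowest, 10.64 at the median and 10.80 at the highest in tg livers, against 10.64, 10.75 and 11.11 in wt livers. In 4 tg arrays it was below every wt array, and no tg array was above the wt range. The means ± SD were 10.64 ± 0.12 in tg livers (n = 10), against 10.79 ± 0.13 in wt livers (n = 8). Over the 20 arrays limma gave a log2 fold change of -0.17, or 0.887-fold, with an interval of -0.30 to -0.05 on the log2 scale (SE 0.06). The unadjusted p was 0.00942 in limma and 0.00896 in a two-sided permutation test over the arrays, but the limma adjusted p over all probe sets was 0.114. Both tests counted the near-identical wt arrays singly, and such a pair, wt_1420_7 (11.11) and wt_1407_5 (10.99), had the highest *Cideb* signals. With each near-identical pair averaged, the log2 fold change was -0.15 (limma adjusted p = 0.201). Without tg_1420_4, tg_1423_2-8_1 and tg_1423_2-8_4, whose *Cideb* signals were the lowest of all, the value was -0.11 (limma adjusted p = 0.526, with 0.068 to 0.526 over all alternatives). The array reads *Cideb* through 1 probe set, whose suffix marks probes that may also bind related transcripts.

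*Cidea* and *Cidec* are scarcely made in lean liver, are abundant in fat and are known to be induced in fatty liver of mice. Here both were near the floor of the array. *Cidea* averaged 3.06 ± 0.18 in tg livers (SD, n = 10) and 3.12 ± 0.12 in wt livers (SD, n = 8), and *Cidec* averaged 2.79 ± 0.19 in tg livers (SD, n = 10) and 2.73 ± 0.08 in wt livers (SD, n = 8). The mean of *Cidea* lay at the percentile 19.7 of all probe sets and that of *Cidec* at 10.7. Log2 fold changes were -0.09 for *Cidea* (limma adjusted p = 0.528) and 0.08 for *Cidec* (limma adjusted p = 0.539), and neither genotype had a *Cidec* signal above 3.19. Signals this low may be background, so they do not tell whether these transcripts changed.

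*Fitm1* showed the largest difference of the 10 genes. Its protein is best known from skeletal and heart muscle, where it promotes the packing of triglycerides into droplets. *Fitm1* had 6.09 at the lowest, 6.79 at the median and 7.62 at the highest in tg livers, against 6.65, 7.34 and 7.55 in wt livers. Of the 10 tg arrays, 9 were under the wt median and 3 under every wt array, yet the highest array of all was also tg, tg_1386_9. The means ± SD were 6.81 ± 0.45 in tg livers (n = 10), against 7.25 ± 0.33 in wt livers (n = 8). The log2 fold change was -0.41, or 0.754-fold with an interval of 0.597 to 0.953, with an SE of 0.16 on the log2 scale. The unadjusted p was 0.0202 in limma and 0.0333 in the two-sided permutation test, and the limma adjusted p was 0.160. Here too, both tests counted the near-identical wt arrays singly. With each pair averaged, the wt mean was 7.25 rather than 7.22, farther from the tg mean, and *Fitm1* was still not called in limma. The 3 lowest arrays were tg_1420_4 (6.09), tg_1423_2-8_1 (6.34) and tg_1423_2-8_4 (6.48), the same 3 that stood apart on the first component. Without them the value was -0.19 (limma adjusted p = 0.670, with 0.0522 to 0.670 over all alternatives). Of 8 skeletal muscle markers, 0 were called and the median log2 fold change was -0.11, while their mean per profile was 4.39 to 4.57 in tg livers and 4.51 to 4.92 in wt livers.

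*Fitm2*, the widely expressed form whose protein cleaves acyl-CoA in the endoplasmic reticulum and is needed for droplets to bud, had nearly the same signal in both genotypes. It had 7.35 at the lowest, 7.74 at the median and 8.07 at the highest in tg livers, against 7.52, 7.70 and 8.17 in wt livers. Its log2 fold change was -0.05 with an interval of -0.25 to 0.15 (SE 0.10, limma adjusted p = 0.822).

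*Hsd17b13* encodes a droplet enzyme of hepatocytes that rises in human fatty liver. Its bright probe set had the narrowest spread of the 10 genes, 0.345 between the lowest and the highest array. It averaged 11.22 ± 0.08 in tg livers (SD, n = 10) and 11.19 ± 0.13 in wt livers (SD, n = 8). Over the 20 arrays its log2 fold change was 0.04, with an interval of -0.06 to 0.14 (limma adjusted p = 0.692). Its second probe set was dim, at 4.23 in tg livers and 4.19 in wt livers, and followed the first only loosely over the 18 profiles (r = 0.455).

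**Figure D2:**
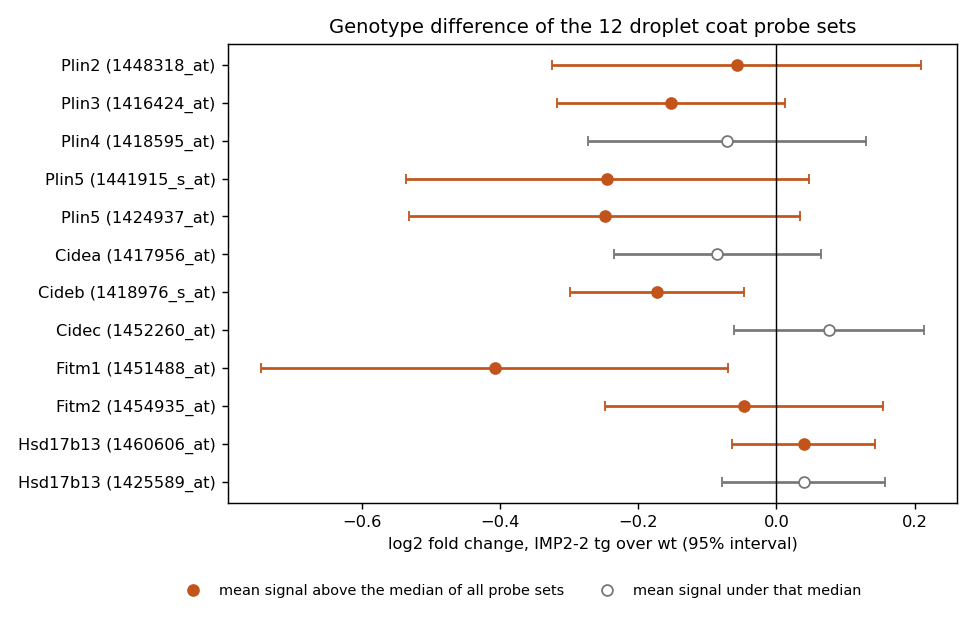
Log2 fold change of tg over wt (horizontal axis) with its 95% interval from limma with genotype as the only term, for each of the 12 probe sets. Filled points have a mean signal above the median of all probe sets and open points are dimmer, and only the intervals of *Cideb* and *Fitm1* leave out 0.

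The names of the samples carry 6 numbers that occur in both genotypes, and the sources used here do not say what they stand for. Within these numbers, tg minus wt ran from -0.66 to 0.17 for *Fitm1*, which was lower in tg livers in 5 of 6. *Plin3* was also lower in tg livers in 5 of 6 (-0.38 to 0.07), *Cideb* in 4 of 6 (-0.32 to 0.10) and *Plin5* in 4 of 6 (-0.61 to 0.52). *Plin2* and *Fitm2* were split evenly, lower in 3 and higher in 3. Arrays with 1 number were as few as 1 of each genotype, so these are values and not tests. Each near-identical wt pair joins arrays of different numbers, so the 6 numbers are not 6 separate comparisons. The lowest differences of *Plin3* (-0.38), *Cideb* (-0.32) and *Plin5* (-0.61) came from the numbers that share these pairs, and that of *Fitm1* (-0.66) did not. An interaction of label number with genotype in limma called 0 of the 12 probe sets, against 0.0155% of all probe sets. The lowest unadjusted p were 0.00574 for *Plin4* and 0.00624 for *Plin5* (limma adjusted p = 0.435 and 0.443). Under 0.05 unadjusted were 3 of the 12, that of *Plin4* and both of *Plin5*, which read the same variation, against 6.51% of all probe sets.

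Beside genotype, the label number itself set *Fitm2* apart. In the F test of the 6 numbers, chosen after seeing the data, 2.59% of all probe sets passed, and of the 12 droplet coat probe sets only that of *Fitm2* did (limma adjusted p = 0.00786). *Fitm2* was 8.07 and 7.99 in the tg_1423_2-8 livers and 8.17 and 8.09 in the wt_1423_2-8 livers. All of these were above the other 16 arrays, which ran between 7.35 and 7.88. The mean of these 4 arrays exceeded that of the other 16 by 0.43 on the log2 scale. *Plin5* had 8.88 and 8.52 in the tg_1423_2-8 livers and 9.04 and 8.86 in the wt_1423_2-8 livers, with 7.59 to 8.60 in the other 16, so 1 of the 4 overlapped. *Plin2* went the other way, with 10.54 to 11.08 in the 4 and 10.79 to 11.63 in the rest. Neither *Plin5* (limma adjusted p = 0.107) nor *Plin2* (limma adjusted p = 0.0608) passed the F test.

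**Figure D3:**
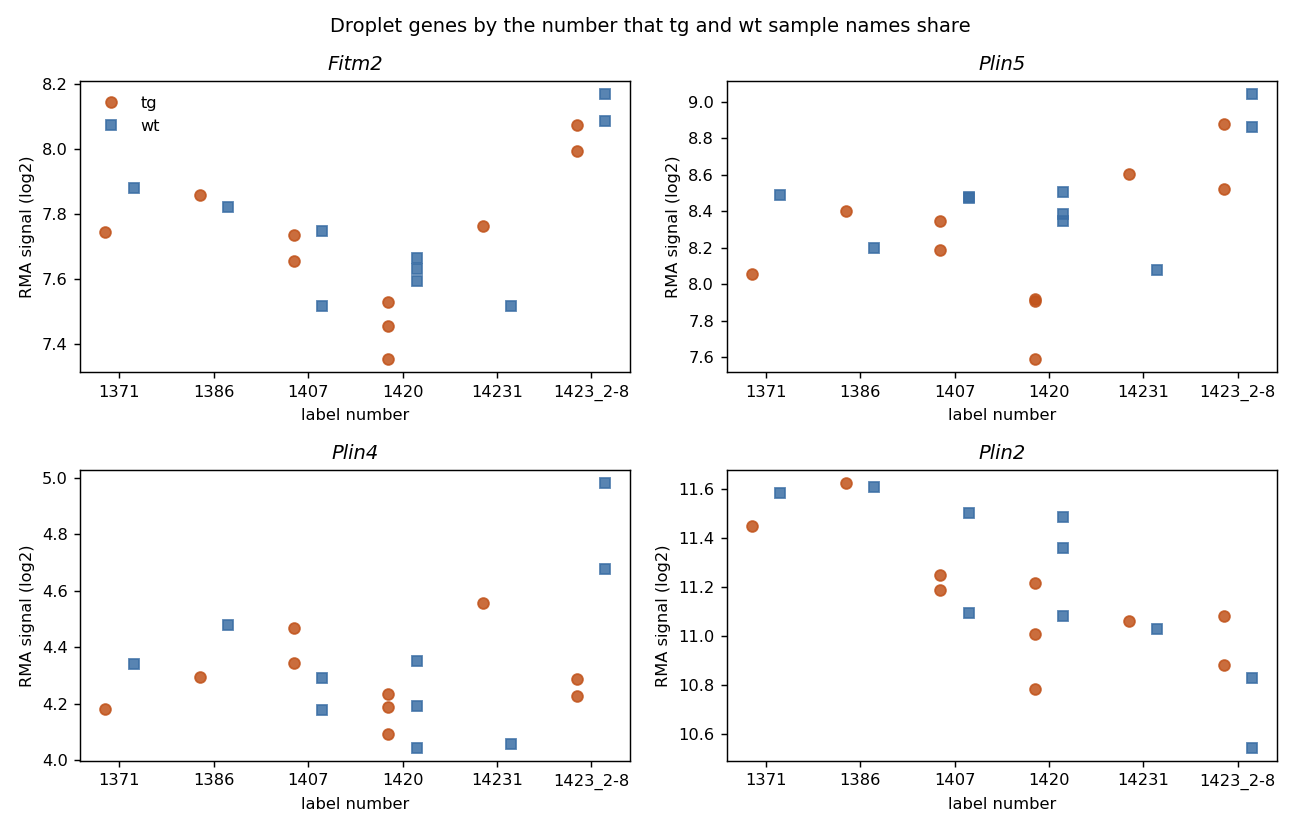
RMA signal (log2) of *Fitm2*, *Plin5*, *Plin4* and *Plin2* by the number that tg (circles) and wt (squares) sample names share, 1 point per array. For *Fitm2* the 4 arrays tg_1423_2-8 and wt_1423_2-8 lie at 7.99 or higher and all others at 7.88 or lower.

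RefSeq promoter windows (GRCm38.p6, from 250 bases before to 50 after a start site) were matched for 9 of the 10 genes and are shown for *Fitm2* and *Plin5*, whose signals were high in the arrays tg_1423_2-8 and wt_1423_2-8, and for *Plin2*, whose signals were low there. Capitals mark matches, on either strand, to 5 short motifs, which are the E-box CACGTG, the CCAAT box, the TATA box with the letters TATAAA, the Sp1 motif GGGCGG and the core motif of nuclear receptors, AGGTCA. No match shown here overlaps another. The *Fitm2* window is chr2:163472580-163472879 on the minus strand, the *Plin5* window is chr17:56117499-56117798 on the minus strand and is the first of 2 listed, and the *Plin2* window is chr4:86670010-86670309 on the minus strand.
Fitm2: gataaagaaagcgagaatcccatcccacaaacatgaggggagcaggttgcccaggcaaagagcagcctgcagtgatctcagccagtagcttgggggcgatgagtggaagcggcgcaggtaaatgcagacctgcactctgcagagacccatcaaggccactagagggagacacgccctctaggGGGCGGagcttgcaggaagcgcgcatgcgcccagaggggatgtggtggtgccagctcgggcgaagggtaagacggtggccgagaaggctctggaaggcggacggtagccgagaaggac
Plin5: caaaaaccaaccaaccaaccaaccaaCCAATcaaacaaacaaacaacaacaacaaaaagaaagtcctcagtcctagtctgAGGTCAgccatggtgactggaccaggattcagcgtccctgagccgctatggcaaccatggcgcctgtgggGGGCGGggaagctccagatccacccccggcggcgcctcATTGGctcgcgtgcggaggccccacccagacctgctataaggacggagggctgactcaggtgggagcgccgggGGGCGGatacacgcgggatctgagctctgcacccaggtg
Plin2: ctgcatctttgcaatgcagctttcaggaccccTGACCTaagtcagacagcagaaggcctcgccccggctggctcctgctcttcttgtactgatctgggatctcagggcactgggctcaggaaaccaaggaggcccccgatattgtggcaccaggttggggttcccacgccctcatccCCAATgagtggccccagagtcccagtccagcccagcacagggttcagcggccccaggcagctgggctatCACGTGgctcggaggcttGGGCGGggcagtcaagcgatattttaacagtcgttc
Each is printed in the direction of transcription. The *Plin2* window held the E-box letters at -4 from the start site, and was the 1 window of 11 that did, where 7.15% of 32851 promoter windows hold them. AGGTCA stood at -218 in *Plin2* (as its reverse complement) and at -170 in *Plin5*, and was in 4 of the 11 windows (3 genes) and in 16.3% of all. GGGCGG was in 6 of the 11 (5 genes) and in 35.7% of all, and was the only match of *Fitm2*, at -68. CCAAT was in 4 of the 11 and in 37.4% of all, and TATAAA was in 1 of the 11, that of *Cideb*, and in 13.6% of all. The 2 windows of *Plin5* share 50 bases, so 1 of its GGGCGG matches lies in both. A match of letters describes the window and is not a binding site.

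The 10 genes varied together only in part. Over 18 profiles, after the genotype means were removed, 45 pairs were examined with permutation p adjusted over the 45. *Fitm2* set the 4 profiles tg_1423_2-8 and wt_1423_2-8 apart, so its pairs are given first without them. Over the remaining 14 profiles, *Plin5* and *Fitm2* had r = 0.642 (permutation p = 0.0228, adjusted 0.136) and rho = 0.670 (permutation p = 0.0159, adjusted 0.116), and r = 0.679 without the 2 profiles farthest from the median. *Plin5* was not the closest: over the same profiles *Fitm2* had r = 0.700 with *Plin2*, -0.694 with *Plin3*, 0.662 with *Plin4* and 0.650 with *Fitm1*. With the remaining genes its r lay between -0.319 and 0.336. Over all 18 profiles *Fitm2* had r = 0.837 with *Plin5*, -0.183 with *Plin2*, -0.648 with *Plin3*, 0.642 with *Plin4* and 0.022 with *Fitm1*. The values with *Plin2* and *Fitm1* thus depended on leaving the 4 profiles out. Of the 45 pairs, 0 passed by either coefficient over these 14, whereas over 18 profiles 6 passed by r, 2 by rho and 1 by both. Among the 6 were *Fitm2* with *Plin5*, *Cidec*, *Plin3* and *Plin4*. The 4 profiles are too few for a value of their own.

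**Figure D4:**
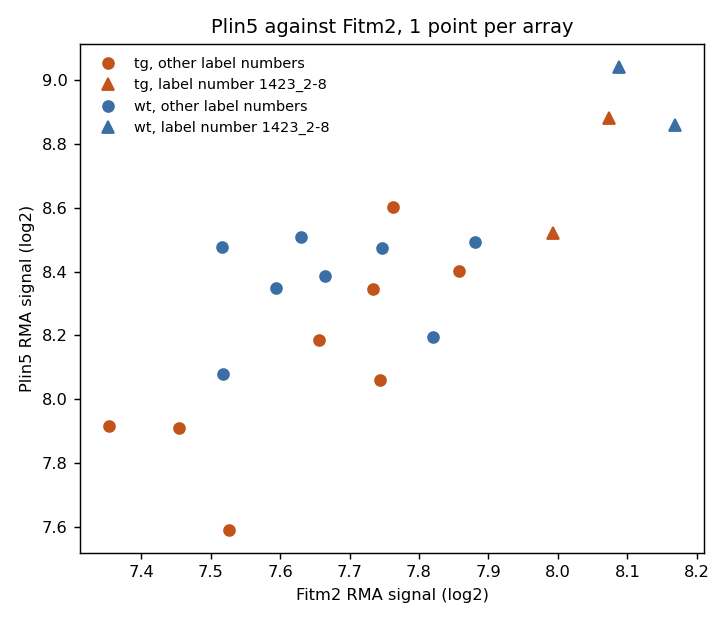
RMA signal (log2) of *Plin5* (vertical) against *Fitm2* (horizontal), 1 point per array, tg and wt in different colours. The 4 arrays tg_1423_2-8 and wt_1423_2-8 (triangles) lie in the upper right, with *Fitm2* at 7.99 or higher.

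Among pairs without *Fitm2*, *Plin2* and *Fitm1* had r = 0.667 (permutation p = 0.00149, adjusted 0.0302) and rho = 0.602 (permutation p = 0.00928, adjusted 0.0717) over 18 profiles. This fell to r = 0.483 without the 2 profiles farthest from the median, so it rested in part on them. *Plin4* and *Plin5*, which lie next to each other on chromosome 17, had r = 0.626 (permutation p = 0.00277, adjusted 0.0302) and rho = 0.595 (permutation p = 0.00956, adjusted 0.0717), and r = 0.459 without the farthest 2. *Plin3* and *Plin4* ran in opposite directions, with rho = -0.759 (permutation p = 0.00106, adjusted 0.0238), but r = -0.537 did not pass (permutation p = 0.0493, adjusted 0.204), and r was -0.580 without the farthest 2. Within the same 14 profiles, these were r = 0.712 (adjusted p = 0.104 by permutation) for *Plin2* with *Fitm1*, r = 0.576 (adjusted p = 0.190 by permutation) for *Plin4* with *Plin5*, and rho = -0.754 (adjusted p = 0.1 by permutation) for *Plin3* with *Plin4*.

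Of 11774 genes searched, those whose signal followed a droplet coat gene most closely are given as a description, with Pearson's r over the 18 profiles, which share their arrays and label numbers. *Fitm2* was closest to *Cpt1a*, the gate enzyme of fatty acid oxidation, and to *Rab43*, each with r = 0.899. Over the 14 profiles r was 0.721 with *Cpt1a* and 0.782 with *Rab43*, so *Cpt1a* was not the closer of them there. *Cpt1a* also separated the 4 arrays tg_1423_2-8 and wt_1423_2-8 (10.76 to 10.93) from the other 16 (9.71 to 10.27, limma adjusted p for label number 0.000258), and did not pass between tg and wt (log2 fold change 0.15, limma adjusted p = 0.633). *Plin5* was closest to *Slc19a1* (r = 0.861), a folate carrier, and *Pex11a* (r = 0.860), a factor of peroxisome division. *Plin2* was closest to *Lonp2*, a peroxisomal protease (r = 0.829). *Fitm1* followed *Amacr*, an enzyme of peroxisomal and mitochondrial lipid metabolism, with r = 0.940, and *Cideb* followed *Uqcr10*, a subunit of respiratory complex III, with r = 0.926. *Plin3* was closest to *Ctnnbip1* (r = 0.844) and *Hsd17b13* to *Serinc1* (r = 0.859).

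Other genes that work at the droplet were read beside the coat, in lists chosen with earlier results of these data known. Among 12 genes of droplet lipolysis, 0 were higher and 1 was lower in tg livers, with a median log2 fold change of -0.06. The 1 was *Mgll*, which cleaves monoglycerides in the last step of lipolysis. It had 7.98 at the lowest, 8.94 at the median and 9.56 at the highest in tg livers, against 9.20, 9.62 and 10.29 in wt livers. Between tg and wt livers *Mgll* differed by -0.75 on the log2 scale, with an SE of 0.16 (limma adjusted p = 0.0178). The call was lost with the near-identical wt arrays averaged (limma adjusted p = 0.0524), without the 3 tg arrays that stood apart (-0.55, limma adjusted p = 0.0951) and without tg_1423_2-8 and wt_1423_2-8 (-0.59, limma adjusted p = 0.162), and held in the other 29 alternatives (lowest adjusted p 0.00526). *Pnpla2*, the lipase that perilipins restrain, was at -0.03 (limma adjusted p = 0.895) and its activator *Abhd5* at -0.01 (limma adjusted p = 0.979). *G0s2*, an inhibitor of that lipase, was at -0.64 without passing (limma adjusted p = 0.275), and *Lipa*, the lysosomal lipase, at 0.27 (limma adjusted p = 0.156).

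Among 17 measured genes of triglyceride synthesis and droplet formation, 1 was higher and 1 lower in tg livers, with a median of 0.05. *Acsl4*, which activates long polyunsaturated fatty acids, rose by 0.32 on the log2 scale (SE 0.08, limma adjusted p = 0.0326), and *Agpat3*, an acyltransferase of phosphatidic acid synthesis, fell by 0.32 (SE 0.09, limma adjusted p = 0.0471). Of 20 fits that each left out 1 array, *Acsl4* lost its call in 8 (adjusted p up to 0.0685) and *Agpat3* in 15 (up to 0.0945). Both also lost it with the near-identical wt arrays averaged (limma adjusted p of 0.0819 for *Acsl4* and 0.0982 for *Agpat3*). The same held without tg_1423_2-8 and wt_1423_2-8 (limma adjusted p of 0.128 for *Acsl4* and 0.211 for *Agpat3*). Without the 3 tg arrays that stood apart, *Acsl4* was at 0.22 (limma adjusted p = 0.237) and *Agpat3* at -0.21 (limma adjusted p = 0.315), the highest p of their alternatives. *Acsl3*, an acyl-CoA synthetase of nascent droplets, was at 0.48 (limma adjusted p = 0.220) and the phosphatase *Lpin1* at 0.45 (limma adjusted p = 0.561). Of 12 measured further proteins of the droplet surface, 0 were called in limma, and the median was -0.04. Under 0.05 unadjusted were 3 of the 12, against 20.4% of all probe sets. *Mettl7b* was at -0.32 (limma adjusted p = 0.0922), *Rdh10*, a retinol dehydrogenase, at -0.26 (limma adjusted p = 0.112), *Aup1*, a factor of protein degradation at the droplet, at -0.21 (limma adjusted p = 0.0761), and *Hsd17b11*, the neighbour of *Hsd17b13* on chromosome 5, at -0.10 (limma adjusted p = 0.604).

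*Plin2*, *Plin4*, *Plin5*, *Cidea* and *Cidec* are known targets of the nuclear receptors PPARA and PPARG, so other genes of those programs were read beside them. Among 9 measured genes of the PPARG program of fatty liver, 1 was higher and 0 were lower, with a median of -0.09. *Lpl*, lipoprotein lipase, had 10.80 at the lowest, 11.25 at the median and 12.14 at the highest in tg livers, against 10.14, 10.52 and 11.19 in wt livers. Its log2 fold change was 0.83 (SE 0.17, limma adjusted p = 0.0136). Its call was lost in the same 3 alternatives as that of *Mgll* (limma adjusted p of 0.0566, 0.0689 and 0.122) and held in the other 29 (lowest adjusted p 0.00461). *Pparg* itself was at 0.14 (limma adjusted p = 0.653), *Ppara* at -0.28 (unadjusted p = 0.00955 and adjusted p = 0.115 in limma), the fatty acid transporter *Cd36* at 0.46 (limma adjusted p = 0.687) and the fatty acid synthase gene *Fasn* at -0.47 (limma adjusted p = 0.342). Among 13 measured targets of PPARA and fasting, 0 were called in limma, and the median was -0.04. Under 0.05 unadjusted were 5 of the 13, against 20.4% of all probe sets. The largest differences were those of *Cyp4a14*, a fatty acid hydroxylase, at 1.38 (limma adjusted p = 0.305), *Acot1*, an acyl-CoA thioesterase, at -0.79 (limma adjusted p = 0.0641) and *Fgf21*, a fasting hormone, at -0.67 (limma adjusted p = 0.203).

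*Cideb* works in the export of very low density lipoproteins. Of 8 genes of that export, 1 was higher and 1 lower in tg livers, with a median of 0.01. *Apobec1*, which edits the mRNA of apolipoprotein B, rose by 0.41 (SE 0.10, limma adjusted p = 0.0370), and *Apoa4*, an apolipoprotein that rises in fatty liver of mice, fell by 1.63 (SE 0.42, limma adjusted p = 0.0427). *Apoa4* averaged 9.72 ± 0.70 in tg livers (SD, n = 10) and 11.29 ± 1.27 in wt livers (SD, n = 8). The next largest difference of the list was that of *Tm6sf2*, at 0.18 (limma adjusted p = 0.642). Of 20 fits that each left out 1 array, *Apobec1* lost its call in 11 (adjusted p up to 0.0708) and *Apoa4* in 12 (up to 0.0841). Both also lost it with the near-identical wt arrays averaged (limma adjusted p of 0.0787 for *Apobec1* and 0.0871 for *Apoa4*). The same held without tg_1423_2-8 and wt_1423_2-8 (limma adjusted p of 0.240 for *Apobec1* and 0.146 for *Apoa4*). Without the 3 tg arrays that stood apart, *Apoa4* was at -1.24 (limma adjusted p = 0.274) and *Apobec1* also did not pass (limma adjusted p = 0.240).

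**Figure D5:**
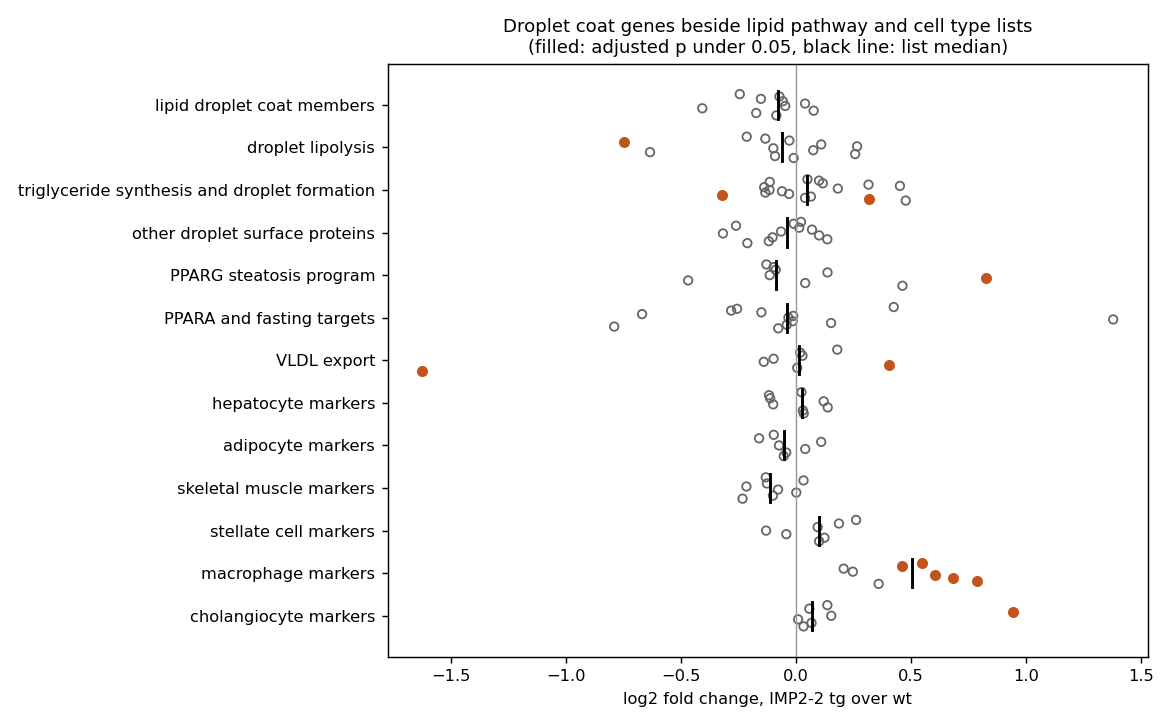
Log2 fold change of tg over wt (horizontal axis) of each measured gene in the droplet coat set, 6 lipid lists and 6 cell type lists (rows), with filled points for an adjusted p under 0.05 and a black line at the list median. The 10 droplet coat genes are all open points, from -0.41 to 0.08 with a median of -0.08, and 5 of 8 macrophage markers are filled, with a median of 0.51.

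Markers of other cells were read beside the coat genes. Of 8 hepatocyte markers, 0 were called, and their mean per profile was 13.5 to 13.7 in tg livers and 13.5 to 13.7 in wt livers. Of 7 measured genes in the list of adipocyte markers, 0 were called, and 4 were above the median signal of all probe sets. Near the floor of the array were *Adipoq* (2.89 in tg livers, 2.90 in wt livers), *Lep* (3.48 and 3.57) and *Ucp1* (3.37 and 3.47). Those above the median were *Adipor2* (10.56 and 10.65), *Fabp4* (7.45 and 7.33), *Lipe* (5.70 and 5.59) and *Retn* (4.92 and 5.10). In whole liver such signals do not tell which cells made the transcripts, so they do not show fat cells. *Fabp4* and *Lipe* also stand in the lipid lists. Of 7 measured stellate cell markers, 0 were called, with a median of 0.10. Of 8 macrophage markers, 5 were higher in tg livers (*Clec4f*, *Cd5l*, *Cd68*, *Vsig4* and *Marco*) and *Adgre1*, *Csf1r* and *Lyz2* did not pass, with a median log2 fold change of 0.51 and a mean per profile of 7.99 to 8.70 in tg livers and 7.64 to 8.29 in wt livers. *Clec4f*, *Cd5l* and *Cd68* lost their calls in 2 of 32 alternatives each, without the 3 tg arrays that stood apart and without tg_1423_2-8 and wt_1423_2-8, *Vsig4* in 7 and *Marco* in 10. Of 7 measured cholangiocyte markers, 1 was higher in tg livers, *Pkhd1* at 0.94 (limma adjusted p = 0.040), and its call was lost in 16 of 32 alternatives. The part of these cells in the values of the coat genes was not tested.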

How the data were processed

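Total RNA of 10 *IMP2-2* tg and 10 wt livers was hybridized to Affymetrix Mouse Genome arrays, by the labels 1 array per liver. The deposited table holds log2 signals that the authors made with RMA, which corrects background, equalizes array distributions and summarizes probes. The RMA version and a genome build are not given in the sources used here. Arrays give no read depth, and their number limits the precision.

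The supplied annotation gave 1 symbol to 34958 probe sets, several to 932 and none to 9211, and 0 member probe sets were shared with another gene. Where a gene has several probe sets, the brightest by its mean over the 20 arrays represents it. limma 3.58.1 in R 4.3.3 fitted genotype as the only term, with Benjamini-Hochberg adjustment over 45101 probe sets and a threshold of 0.05. Intervals are those of this moderated fit, so they do not use the pairing by label number. Permutation tests drew 100000 relabelings. Tables and figures used Python 3.11.15 with numpy 2.4.6, scipy 1.17.1, pandas 2.3.3 and matplotlib 3.10.9. The scripts were tested on simulated data.

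All members are named, with list genes that passed, the 3 largest differences of a lipid list among genes above the median signal of 4.53, and up to 3 closest genes per member. Other genes were named after their values were seen, for their role. Members and lists were chosen with earlier results of these data known. Alternatives covered normalization, filtering, empirical Bayes settings, array weights, *Xist*, label number and arrays left out.

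Arrays of opposite genotype that share a label number deviated together in 6 of 6 numbers, with correlations of 0.184 to 0.404 after genotype means were removed. The correlation was highest for the own number in 5 of 6, and for 1371 it was 0.215, against 0.232 with another number. For 1407 it was 0.184, against 0.178 with another number. Correlations with another number reached 0.235, so a value over 0.1 does not by itself show pairing. With own values over 0.1 in every number, the numbers were taken to pair the samples, and the blocked fit is given among the alternatives.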

Additional observations from a re-analysis of the deposited data

Results flagged for a closer look

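*Plin3* in array tg_1420_12 was 7.77, above the other 9 tg arrays, which ran from 7.28 to 7.48. The gap to the next array was 0.594 of the range of the tg group. It was the only array found far from its group among 24 groups of values examined (12 probe sets, 2 genotypes), where chance gives about 1 in 20 groups, so 1 in 24 is about what chance gives.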

How the results depend on the processing

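The count of called droplet coat probe sets was 0 higher and 0 lower in limma and in 32 alternatives, of which 20 each left out 1 array. With the label number as a replicate block, as a fixed term, the count was also 0 higher and 0 lower. In that limma fit *Fitm1* had an adjusted p of 0.0786 and *Cideb* of 0.0905, and the block changed no call of a droplet coat gene. The SE fell from 0.14 to 0.10 for *Plin5* and from 0.13 to 0.09 for *Plin2*, and hardly changed for *Cideb* (0.061 to 0.059). The printed intervals are those without the block. The adjusted p nearest to the threshold were 0.0522 for *Fitm1* in fits without 1 array and 0.068 for *Cideb* after repeated quantile normalization. Without tg_1420_4, tg_1423_2-8_1 and tg_1423_2-8_4 the log2 fold change reversed for *Plin2*, to 0.0451, and for *Cidec*, to -0.0181, and without the 4 arrays tg_1423_2-8 and wt_1423_2-8 it reversed for *Plin4*, to 0.0532. The other members kept their direction in all alternatives, and the cause of the reversals was not tested. Over all probe sets, 850 higher and 299 lower calls became 1634 and 607 with the replicate block as a fixed term, 1249 and 542 as a random one, 245 and 31 with near-identical wt arrays averaged, 682 and 476 after quantile normalization, 969 and 156 with arrays centred on their medians, 1154 and 397 above the median signal, 735 and 225 with trend and robust settings, 599 and 163 with array weights, 716 and 240 with *Xist*, 158 and 8 without the 3 tg arrays, 69 and 5 without tg_1423_2-8 and wt_1423_2-8, and 1209 and 484 without tg_1386_9 and wt_1386_4. *Cideb* has no probe set without a suffix, so that alternative gave it no value. *Plin4*, *Cidea*, *Cidec* and 1 probe set of *Hsd17b13* had means under the median signal, so their small differences carry little information.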
